A study of Homo sapiens with 4 samples.

Results

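The constitutive proteasome genes are 42 genes chosen by symbol: the 14 subunits of the 20S core (PSMA1 to PSMA7 and PSMB1 to PSMB7), the ATPases PSMC1 to PSMC6 of the 19S cap, PSMD1 to PSMD14, the activators PSME3 and PSME4, the inhibitor PSMF1, and the core chaperones PSMG1 to PSMG4 and POMP. The cap is counted as 17 genes, PSMC1 to PSMC6 and the PSMD genes other than PSMD5, PSMD9 and PSMD10. Those 3 are chaperones of the cap base and are counted with the assembly and activator genes. In the annotation used here 38 of them have a probe. A gene was represented by its brightest probe and kept where the detection p, a comparison with negative controls on the same array, was under 0.05 on at least 2 of 4 arrays. This kept 37 of the 42, among 11311 genes kept in all. PSMA7, PSMC5, PSMD7 and PSMD13 have no probe in that annotation. PSMF1, a protein that binds and inhibits the core, was detected on 0 of 4 arrays, at log2 signals of 5.87 and 5.90 on the knockout arrays and 5.83 and 5.84 on the wild type arrays. PSMD9 was kept with signals close to background, at 6.32 and 6.39 on the knockout arrays and 6.40 and 6.35 on the wild type arrays. All 37 kept genes were detected on both arrays of each group.

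The groups were MDA-MB-468 cells labelled mH2A1.2 knockout, on 2 arrays, and wild type MDA-MB-468 cells, on 2 arrays, with no treatment given in the labels. MDA-MB-468 is an established human breast cancer line, and mH2A1.2 is a splice form of the histone variant macroH2A1, made from MACROH2A1. The sources used here give neither the way the gene was disrupted nor whether the knockout cells came from 1 clone. Separate cultures are not stated for the replicates, so a p-value reflects the scatter among these 4 samples alone, and that scatter could be technical.

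The proteasome is the protease that degrades proteins tagged with ubiquitin in the cytosol and nucleus. Its barrel-shaped core is built of alpha rings, which gate the entrance, around beta rings, of which PSMB5, PSMB6 and PSMB7 carry the active sites. A cap on either end binds ubiquitin chains, removes them and unfolds the substrate with a ring of ATPases, and further proteins assemble the parts or replace the cap. Cells adjust the output of the genes together, and the transcription factor NFE2L1 drives them when proteasome activity falls short.

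The promoters of 5 members are shown, the 3 whose difference had the smallest p (PSME4, PSMG4 and PSMD11) and, chosen for having both motifs searched, one core and one cap subunit (PSMB3 and PSMD3). Each runs 5′ to 3′ from 250 bases before the annotated start to 50 after it (RefSeq, GRCh38.p14). Capitals mark TGACNNNGC, the antioxidant response element through which NFE2L1 acts, and CCAAT, the letters bound by NF-Y, either read on both strands. The positions are chr17:38752491-38752790 on the plus strand for PSMB3, chr17:39980557-39980856 on the plus strand for PSMD3, chr17:32444260-32444559 on the plus strand for PSMD11, chr2:53970944-53971243 on the minus strand for PSME4, and chr6:3258697-3258996 on the plus strand for PSMG4.
PSMB3: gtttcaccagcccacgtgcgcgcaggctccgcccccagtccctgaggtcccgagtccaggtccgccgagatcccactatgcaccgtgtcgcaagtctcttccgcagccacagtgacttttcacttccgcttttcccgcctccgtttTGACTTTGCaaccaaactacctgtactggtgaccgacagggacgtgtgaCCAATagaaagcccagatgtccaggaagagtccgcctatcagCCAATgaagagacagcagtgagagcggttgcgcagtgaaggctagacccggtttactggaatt
PSMD3: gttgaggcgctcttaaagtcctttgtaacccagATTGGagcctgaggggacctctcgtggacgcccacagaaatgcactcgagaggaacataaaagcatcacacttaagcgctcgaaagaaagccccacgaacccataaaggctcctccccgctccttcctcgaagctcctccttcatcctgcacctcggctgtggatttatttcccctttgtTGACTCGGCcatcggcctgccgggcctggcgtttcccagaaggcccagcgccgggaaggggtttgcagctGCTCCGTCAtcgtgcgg
PSMD11: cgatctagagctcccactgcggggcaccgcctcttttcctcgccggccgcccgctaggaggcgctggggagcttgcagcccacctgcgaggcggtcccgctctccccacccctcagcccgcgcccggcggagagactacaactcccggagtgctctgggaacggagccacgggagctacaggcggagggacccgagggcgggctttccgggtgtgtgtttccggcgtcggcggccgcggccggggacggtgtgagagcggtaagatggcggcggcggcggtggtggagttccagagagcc
PSME4: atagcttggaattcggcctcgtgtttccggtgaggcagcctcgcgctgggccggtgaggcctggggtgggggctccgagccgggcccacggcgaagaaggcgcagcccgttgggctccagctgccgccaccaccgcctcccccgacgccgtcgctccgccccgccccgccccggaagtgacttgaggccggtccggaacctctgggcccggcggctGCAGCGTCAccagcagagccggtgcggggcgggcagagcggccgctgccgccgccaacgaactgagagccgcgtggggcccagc
PSMG4: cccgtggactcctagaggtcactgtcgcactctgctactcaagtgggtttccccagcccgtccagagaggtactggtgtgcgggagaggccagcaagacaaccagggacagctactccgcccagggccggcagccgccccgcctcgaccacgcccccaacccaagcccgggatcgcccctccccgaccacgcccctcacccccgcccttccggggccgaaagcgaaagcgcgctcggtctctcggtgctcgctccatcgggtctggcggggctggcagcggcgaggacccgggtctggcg
PSMB3 has the first motif 104 bases before the start and CCAAT 55 and 13 bases before it. PSMD3 has the first motif 37 bases before the start, and again after the start on the opposite strand. Its CCAAT is on the opposite strand, 217 bases before the start. PSME4 has the first motif on the opposite strand 34 bases before the start, and the windows of PSMD11 and PSMG4 hold the letters of neither. The promoter table held 36 of the 42 genes, with 44 windows of 300 bases. TGACNNNGC occurred in 27.3% of these windows, against 13.3% of all 35116 windows, and CCAAT in 40.9%, against 34.6%. Members with TGACNNNGC in any window had a median difference of -0.32 on the log2 scale (11 measured genes), and those without it -0.26 (21 measured genes). For CCAAT the medians were -0.30 with it and -0.30 without it, over 16 measured genes each. A match is a run of letters and not a measured binding site.

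Detection p was under 0.05 for 18753 to 19817 of 47230 probes on each array. Knockout replicate 2 stood apart: 1547 and 1185 genes lay more than 2-fold from wild type replicates 1 and 2, against 377 and 416 genes for knockout replicate 1, and 41 genes separated the wild type arrays from each other. MACROH2A1, the targeted gene, read 12.32 and 12.12 on the knockout arrays and 13.04 and 12.96 on the wild type arrays at its brightest probe, and a second kept probe was also lower, at 9.68 and 9.46 in knockout against 10.66 and 10.54 in wild type. The third kept probe read higher in knockout, at 9.71 and 9.30 against 8.89 and 8.56 in wild type. The sources used here do not place these probes inside or outside the disrupted part, so they check the labels only in part. Of 10 markers listed for a basal breast epithelial line, EGFR, EPCAM, KRT7, KRT8 and KRT18 were kept, KRT5, CDH1 and CDH3 had a probe that was not kept, and KRT6B and KRT17 had no probe in the annotation. Of 18 markers of fibroblasts, leukocytes and endothelium 5 were kept (COL1A1, DCN, PDGFRB, CD14 and CD68), and PTPRC, CD3E, CD79A, COL1A2, COL3A1 and PECAM1 were not. The summed signals of the kept markers on the normalized linear scale were 4450 and 4308 in knockout against 3385 and 3379 in wild type for the basal epithelial markers, 275.1 and 338.8 in knockout against 217.0 and 188.3 in wild type for fibroblast markers, and 1409 and 2820 in knockout against 1146 and 1895 in wild type for leukocyte markers. COL1A1 was detected on the knockout arrays alone, at log2 signals of 6.31 and 6.15, against 5.95 and 5.96 in wild type. It was kept through the group where it is higher, so its share of the fibroblast sums is tied to the filter. The part of these markers in the results below was not tested.

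The cap subunits lay lower in knockout cells as a group, the core subunits lay closer to wild type, and the assembly and activator genes lay on both sides. In the cap 13 of 14 measured genes had a negative difference (knockout minus wild type, log2 signal), with a median of -0.36, which was -0.15 when arrays were scaled to equal medians. In the core 10 of 13 were negative, with a median of -0.17, which turned to 0.04 under that scaling. The median of all 11311 genes was -0.01, and 0.125 under that scaling, so relative to all genes the cap lay at -0.36 and -0.27 and the core at -0.16 and -0.09. In bulk RNA of this kind, less RNA per cell cannot be told apart from fewer cells of a type. Over all 37 members 29 were negative, or 78.4%, against 50.8% of all genes, and 23 under median scaling, where 33.6% of all genes were negative. Knockout and wild type arrays did not overlap in 19 members that lay lower (51.4%, against 28.2% of all genes) and in 3 that lay higher (8.11%, against 25.9% of all genes). The arrays of 54.1% of all genes did not overlap in one direction or the other. By part, 10 cap subunits, 6 core subunits and 3 assembly or activator genes were lower without overlap. Those higher without overlap were PSMA6, PSMD10 and PSMG4. No member differed 2-fold, against 4.99% of all genes.

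No member passed limma's moderated test with adjustment over all genes, where the smallest adjusted p was 0.171 for PSME4. The test called 0% of all genes at an adjusted p under 0.05. At an unadjusted p under 0.05 there were 2 members lower, PSME4 and PSMD11, and 1 higher, PSMG4, together 8.11% of the 37. All genes reached it in 20.2% of cases, 10.5% lower and 9.64% higher, a larger share than among the members. The median size of the difference, whatever its sign, was 0.30 for members and 0.23 for all genes, and the median standard error was 0.16 for both.

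**Figure D1:**
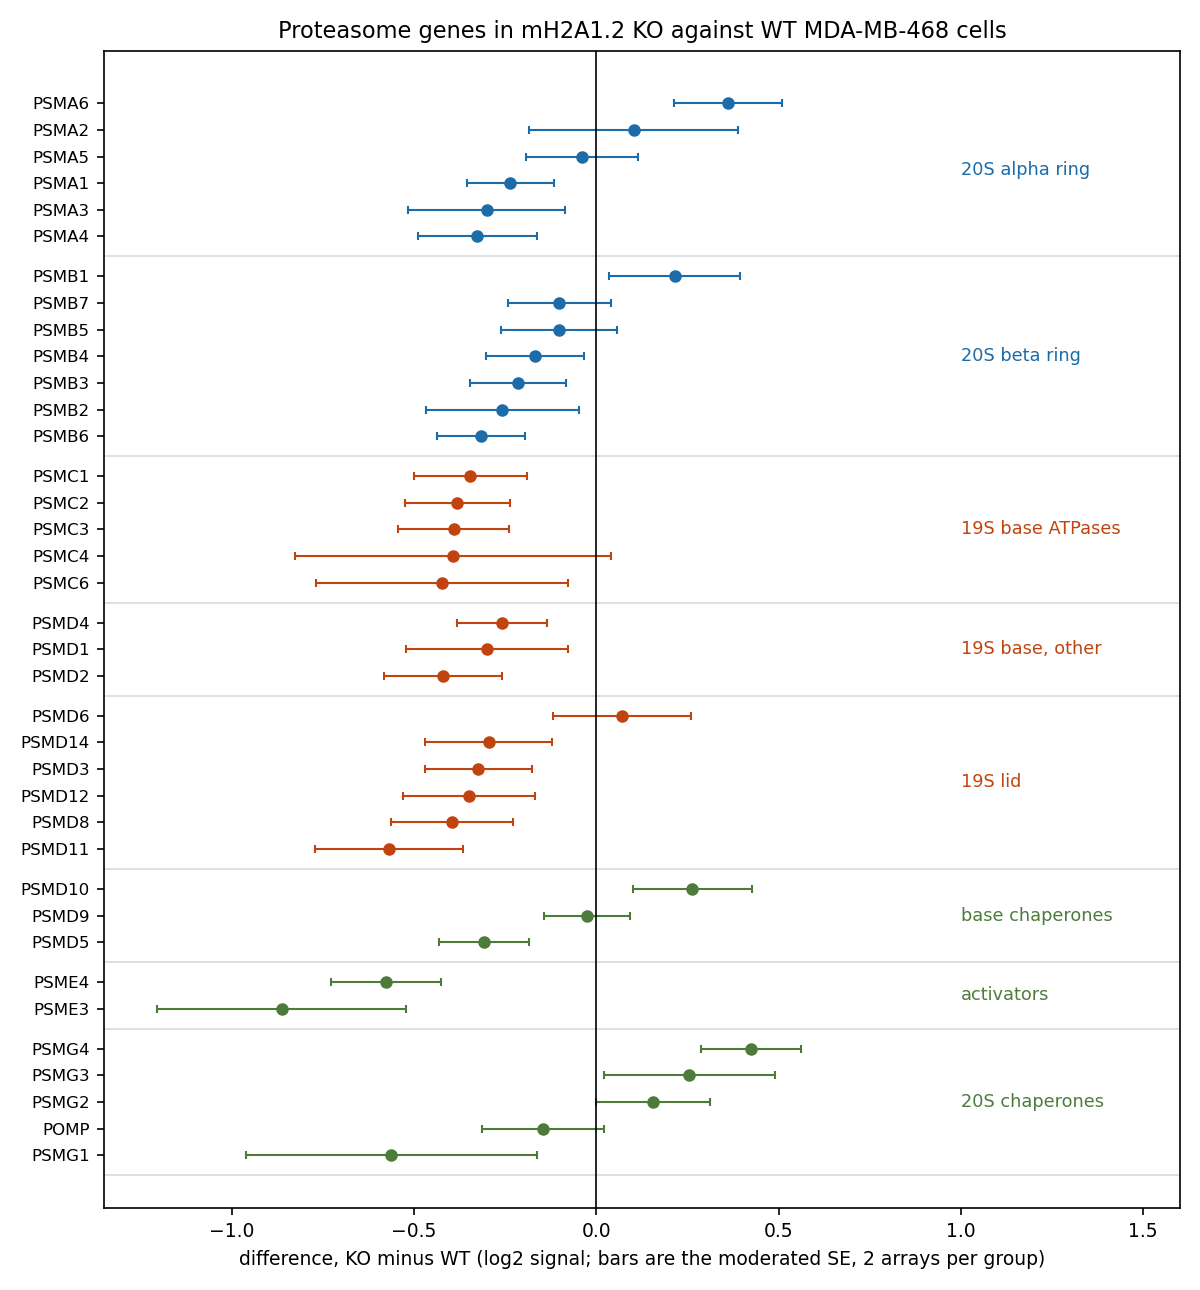
Difference between knockout and wild type for each of the 37 measured proteasome genes (knockout minus wild type, log2 signal on the horizontal axis; points are the fitted difference of 2 arrays per group and bars its moderated standard error), grouped down the page by role. Of the 14 cap subunits PSMD6 alone lies right of 0, and PSME3 has the lowest fitted difference in this fit, -0.86.

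The catalytic subunits of the core came within the spread of the arrays in 2 of 3 cases. PSMB5, the chymotrypsin-like site and the main target of bortezomib, had log2 signals of 12.33 and 12.05 on the knockout arrays, against 12.36 and 12.22 on the wild type arrays. PSMB7, the trypsin-like site, had 13.31 and 13.07 on the knockout arrays, against 13.30 and 13.27 on the wild type arrays. For both genes knockout replicate 1 read about as high as wild type and knockout replicate 2 read lowest, so the groups overlapped. The differences were -0.10 ± 0.16 for PSMB5 and -0.10 ± 0.14 for PSMB7 (moderated SE, n = 2 per group), and both turned positive without knockout replicate 2 and under median scaling. PSMB6, the caspase-like site, had 13.06 and 12.95 on the knockout arrays, against 13.31 and 13.34 on the wild type arrays. Both knockout arrays lay below both wild type arrays, with a difference of -0.32 ± 0.12 (limma adjusted p = 0.257).

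The other beta subunits complete the rings without active sites of their own. PSMB1 had 13.37 and 13.03 on the knockout arrays, against 12.87 and 13.09 on the wild type arrays, a difference of 0.21 ± 0.18 (SE, n = 2 per group) and the highest of the beta ring. Knockout replicate 1 was its highest array and the groups overlapped. PSMB2, PSMB3 and PSMB4 were lower without overlap, by -0.26 ± 0.21, -0.22 ± 0.13 and -0.17 ± 0.14, though for PSMB2 knockout replicate 1 sat only just below wild type, at 12.132 against 12.135 and 12.136. Without knockout replicate 2 the difference of PSMB2 was -0.0034 and that of PSMB4 -0.08, and without knockout replicate 1 that of PSMB1 was 0.04.

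The alpha subunits form the outer rings and the gate. PSMA6 had 13.47 and 13.20 on the knockout arrays, against 12.96 and 12.99 on the wild type arrays, a difference of 0.36 ± 0.15 (SE, n = 2 per group; limma adjusted p = 0.277). Both knockout arrays were above both wild type arrays, and the dimmer probe of the gene had the same sign at 0.46. Without knockout replicate 1 the difference of PSMA6 was 0.23. PSMA4 lay lowest of the ring, with 12.31 and 11.99 on the knockout arrays, against 12.54 and 12.42 on the wild type arrays. Its difference was -0.33 ± 0.16, with no overlap, and -0.17 without knockout replicate 2. PSMA1 was also lower without overlap (-0.24 ± 0.12), though its dimmer kept probe overlapped, at -0.37 ± 0.39. PSMA3 (-0.30 ± 0.21), PSMA5 (-0.04 ± 0.15) and PSMA2 (0.10 ± 0.29) overlapped. Without knockout replicate 2 PSMA3 was at -0.05, and PSMA2 ran from -0.24 to 0.45 with 1 array left out.

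The ATPases of the base, which pull substrates into the core, had near-equal differences. All 5 measured were negative, between -0.42 and -0.35, with a median of -0.39. PSMC1 lay nearest to wild type, with 13.00 and 12.70 on the knockout arrays, against 13.17 and 13.22 on the wild type arrays, a difference of -0.35 ± 0.15 (SE, n = 2 per group). PSMC6 lay farthest, with 11.89 and 10.99 on the knockout arrays, against 12.02 and 11.71 on the wild type arrays, a difference of -0.42 ± 0.35. Its groups overlapped, and the low value of knockout replicate 2 carried the difference. Without that array it was 0.02. PSMC4 also overlapped (-0.39 ± 0.43, and 0.12 without knockout replicate 2), with 1 array of each group low, at 11.06 and 10.03 on the knockout arrays against 11.26 and 10.62 on the wild type arrays. PSMC2 (-0.38 ± 0.14) and PSMC3 (-0.39 ± 0.15) were lower without overlap, as PSMC1 was at its brightest probe. The other kept probe of PSMC1 overlapped, at -0.36 ± 0.32. Without knockout replicate 2 the differences were -0.20 for PSMC1, -0.27 for PSMC2 and -0.26 for PSMC3.

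The rest of the base holds the scaffolds and a ubiquitin receptor. PSMD2, the smaller scaffold, had 12.00 and 11.93 on the knockout arrays, against 12.22 and 12.54 on the wild type arrays, a difference of -0.42 ± 0.16 (SE, n = 2 per group; limma adjusted p = 0.258). PSMD4, the receptor Rpn10 in yeast, had 11.55 and 11.51 on the knockout arrays, against 11.73 and 11.86 on the wild type arrays, a difference of -0.26 ± 0.12. In both genes the knockout arrays were close together and below wild type, and the 3 kept probes of PSMD4 were all lower without overlap, at -0.26, -0.21 and -0.36. PSMD1, the larger scaffold, differed by -0.30 ± 0.22 with overlapping groups, and by -0.04 without knockout replicate 2. PSMD2 was at -0.26 without wild type replicate 2.

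The lid removes ubiquitin chains before the substrate enters. PSMD11, a scaffold subunit of the lid, had 8.29 and 7.81 on the knockout arrays, against 8.62 and 8.62 on the wild type arrays. Both knockout arrays were below the wild type pair, and knockout replicate 2 the more so, with a difference of -0.57 ± 0.20 (SE, 2 arrays per group), which is 1.48-fold lower (limma adjusted p = 0.239). It was -0.33 without knockout replicate 2, -0.81 without knockout replicate 1 and -0.31 under median scaling. PSMD14, the deubiquitinating enzyme of the lid, differed by -0.30 ± 0.17, and PSMD3, PSMD8 and PSMD12 by -0.32 ± 0.15, -0.396 ± 0.17 and -0.35 ± 0.18, all without overlap. Without knockout replicate 2 these were -0.10 for PSMD14, -0.19 for PSMD3, -0.27 for PSMD8 and -0.19 for PSMD12. PSMD6 was the exception, with 11.99 and 11.59 on the knockout arrays, against 11.81 and 11.63 on the wild type arrays. The highest and the lowest value both came from knockout, and the difference of 0.07 ± 0.19 changed sign with 1 array left out.

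**Figure D2:**
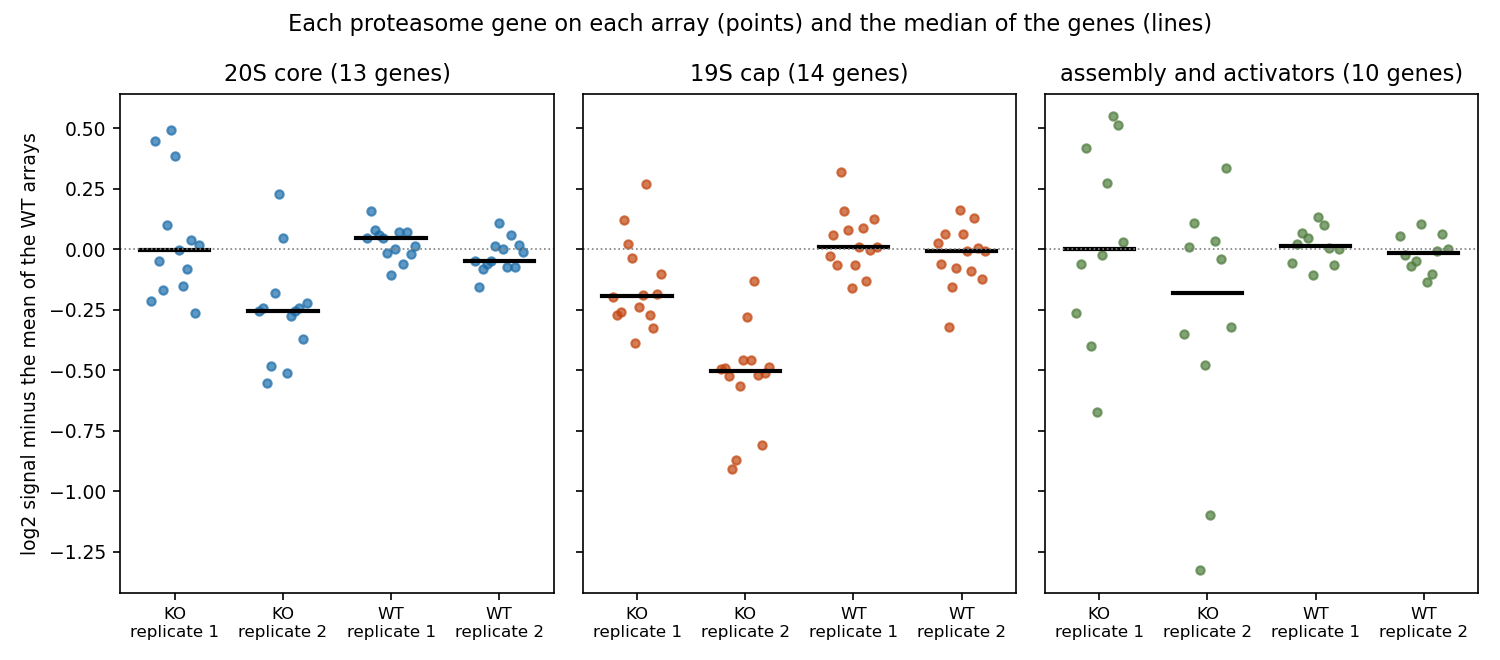
Log2 signal of each measured proteasome gene on each array, less the mean of its wild type arrays (vertical axis, log2 units; points are genes, lines the median of the genes), in panels for the core, the cap, and the assembly and activator genes. On knockout replicate 2 the cap median is -0.50 and the core median -0.26, and on knockout replicate 1 they are -0.19 and -0.003. The wild type medians lie within 0.05 of 0 and mirror each other by construction.

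The core and the cap kept their order on both knockout arrays, and the size depended on the array. Relative to the wild type mean, the cap median was -0.19 on knockout replicate 1 and -0.50 on knockout replicate 2, and the core median was -0.003 and -0.26. The core therefore lay above the cap by 0.19 on knockout replicate 1 and 0.25 on knockout replicate 2. On wild type replicates 1 and 2 the values were 0.04 and -0.04. These mirror each other by construction, since each array is set against the wild type mean, so they are not 2 separate controls. The difference between the medians over both arrays was 0.20, and 0.18 with PSMD5, PSMD9 and PSMD10 counted as cap. No test was run on these medians, since the genes were chosen as a set. On knockout replicate 2 all 14 cap subunits and 11 of 13 core subunits were below the wild type mean, with 50.1% of all genes below it. On knockout replicate 1 these were 11 and 7, with 52.7% of all genes below. Leaving out knockout replicate 2 moved the core median to -0.003 and the cap median to -0.19.

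Within the knockout group, most proteasome genes read lower on the second array. Knockout replicate 2 read below knockout replicate 1 in 35 of 37 members, against 46.9% of all genes, the exceptions being PSMD9 and PSME4. Wild type replicate 2 read below wild type replicate 1 in 22 of 37, against 43.7% of all genes. The median gap between the knockout arrays was 0.28 for members and 0.25 for all genes, and between the wild type arrays 0.13 for both. When knockout replicate 1 was left out, 7 members passed limma's test at an adjusted p under 0.05, all lower (PSMA3, PSMB2, PSMC6, PSMD1, PSMD11, PSME3 and PSMG1), or 7 of 37 against 13.5% of all genes called lower in that fit. At an unadjusted p under 0.05 the count was 18 of 37 lower, against 19.9% of all genes. The spread of the single knockout array in that fit was taken from the wild type pair. Without knockout replicate 2 no member passed, against 2.76% of all genes called in either direction, and at an unadjusted p under 0.05 there were 4 members higher and 2 lower, with 11.7% and 12.9% of all genes. Knockout replicate 2 also had the lowest mean signal before normalization, 454.9 against 488.9 to 497.9 on the other arrays; the part of this in the result was not tested.

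The nuclear activators both lay lower in knockout cells without overlap. PSME4 encodes PA200, which caps the core in place of the ATPase cap and is known to promote the breakdown of acetylated histones, and had 10.04 and 10.23 on the knockout arrays, against 10.61 and 10.82 on the wild type arrays. All knockout values were below all wild type values and the gaps within groups were alike, with a difference of -0.58 ± 0.15 (SE, 2 arrays per group), which is 1.49-fold lower (limma adjusted p = 0.171). It ran from -0.68 to -0.38 over 13 alternatives. PSME3 encodes PA28 gamma, a nuclear activator that works without ATP, and had 9.72 and 8.80 on the knockout arrays, against 10.17 and 10.07 on the wild type arrays. Its difference was -0.86 ± 0.34, or 1.82-fold lower (limma adjusted p = 0.269), with no overlap. Knockout replicate 2 was far below the rest, and a dimmer probe of the gene gave -0.84. Without that array the difference was -0.40, and without knockout replicate 1 it was -1.33.

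The chaperones that build the core lay on both sides of wild type. PSMG4, which with PSMG3 guides the alpha ring, had 9.88 and 9.71 on the knockout arrays, against 9.31 and 9.44 on the wild type arrays. Both knockout arrays were above both wild type arrays, with a difference of 0.42 ± 0.14 (SE, 2 arrays per group), which is 1.34-fold higher (limma adjusted p = 0.214). PSMG1, which with PSMG2 guides the same ring, had 10.89 and 9.82 on the knockout arrays, against 11.05 and 10.78 on the wild type arrays. Only knockout replicate 2 was clear of the other arrays, and the difference of -0.56 ± 0.40 became -0.02 without it. PSMG2 (0.16 ± 0.16), PSMG3 (0.26 ± 0.23) and POMP, which helps the beta rings form (-0.15 ± 0.17), had overlapping groups. Of the chaperone pairs, PSMG1 and PSMG2 had differences of opposite sign, while PSMG3 and PSMG4 were both positive.

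The base chaperones were also mixed. PSMD10, known as gankyrin, had 10.51 and 10.20 on the knockout arrays, against 10.16 and 10.02 on the wild type arrays, a difference of 0.26 ± 0.16 (SE, n = 2 per group). PSMD5 had 7.63 and 7.54 on the knockout arrays, against 7.84 and 7.95 on the wild type arrays, a difference of -0.31 ± 0.12. Neither gene had overlapping groups at its brightest probe, and neither passed the test. The dimmer kept probes of PSMD10 overlapped, at 0.11 and 0.35. The difference of PSMD10 was 0.11 without knockout replicate 1, and that of PSMD5 was -0.03 under median scaling. PSMD9, near background, differed by -0.03 ± 0.12.

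**Figure D3:**
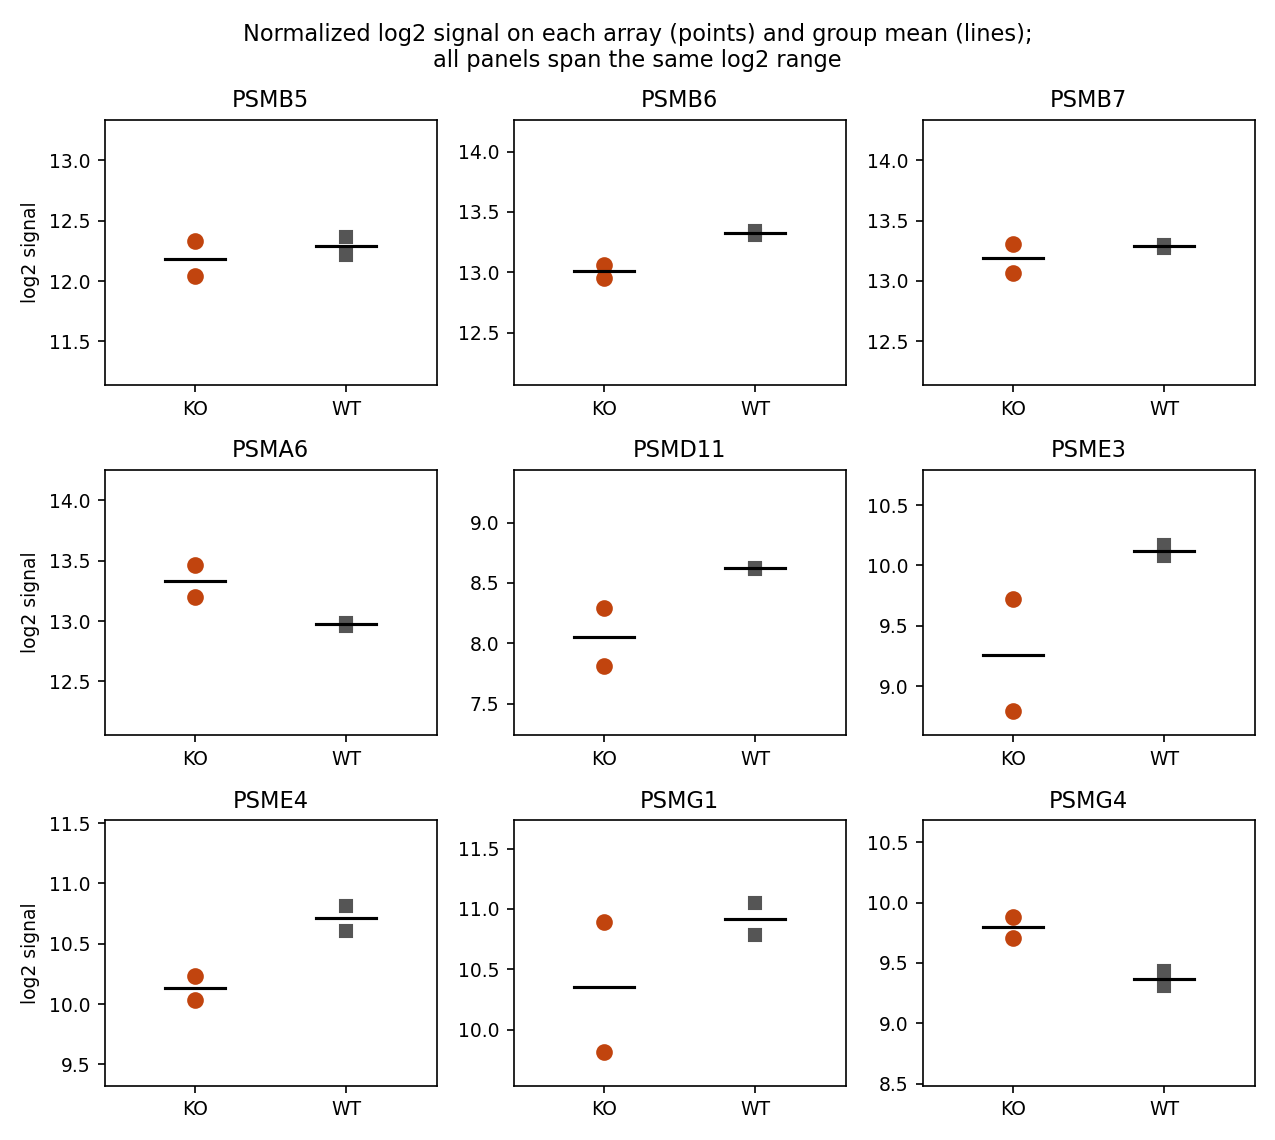
Normalized log2 signal (vertical axis, with the same span in each panel) of 9 proteasome genes on the knockout arrays (circles) and wild type arrays (squares), with lines at the group means. PSMB6, PSMD11, PSME3 and PSME4 lie lower and PSMA6 and PSMG4 higher on both knockout arrays, while PSMB5, PSMB7 and PSMG1 overlap.

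Among 30 other genes of the pathway, 25 were measured, with 14 negative, a median of -0.08 and 0 past the adjusted threshold. At an unadjusted p under 0.05, 4 were lower and 1 was higher, against 10.5% and 9.64% of all genes. ADRM1, a ubiquitin receptor of the cap base, had 12.12 and 11.66 on the knockout arrays, against 12.59 and 12.58 on the wild type arrays. Its difference was -0.69 ± 0.20 (SE, n = 2 per group), and -0.46 without knockout replicate 2. VCP, the ATPase that extracts substrates for the proteasome, differed by -0.51 ± 0.13, PITHD1, a protein that binds the proteasome, by -0.42 ± 0.12, and AKIRIN2, which brings proteasomes into the nucleus, by -0.38 ± 0.11. Of the 25 measured genes, 8 lay lower without overlap (32%, against 28.2% of all genes) and 1 higher (4%, against 25.9%). ADRM1, VCP, PITHD1 and AKIRIN2 lay below wild type on both knockout arrays, but they were picked for a small unadjusted p. PAAF1, which binds the cap ATPases and inhibits the joining of cap and core, went the other way, with 8.79 and 9.25 on the knockout arrays, against 7.77 and 8.08 on the wild type arrays. It was 2.13-fold higher, with a difference of 1.09 ± 0.22 (limma adjusted p = 0.143). Without knockout replicate 1, ADRM1, VCP and PAAF1 passed limma's test, at adjusted p = 0.0113, 0.0306 and 0.0101, where 29.2% of all genes passed in either direction. NFE2L1, chosen after its values were seen, had 9.71 and 10.44 on the knockout arrays, against 10.01 and 10.21 on the wild type arrays, with the wild type pair between the knockout pair and a difference of -0.03 ± 0.28.

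The inducible counterparts of the catalytic subunits lay higher in knockout cells. PSMB8, PSMB9 and PSMB10 differed by 0.69 ± 0.18, 1.66 ± 0.11 and 0.73 ± 0.12 (SE, n = 2 per group). Each lay higher without overlap, as did 25.9% of all genes. With all 4 arrays 0 of them passed limma's adjusted test, which called 0% of all genes. Without knockout replicate 1 the differences of PSMB8, PSMB9 and PSMB10 were 0.88, 1.65 and 0.71. Without knockout replicate 2 they were 0.50, 1.68 and 0.75. With the mean of its kept probes the difference of PSMB9 was 1.05. The activator subunits PSME1 and PSME2 differed by 0.37 ± 0.14 and -0.02 ± 0.15.

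**Figure D4:**
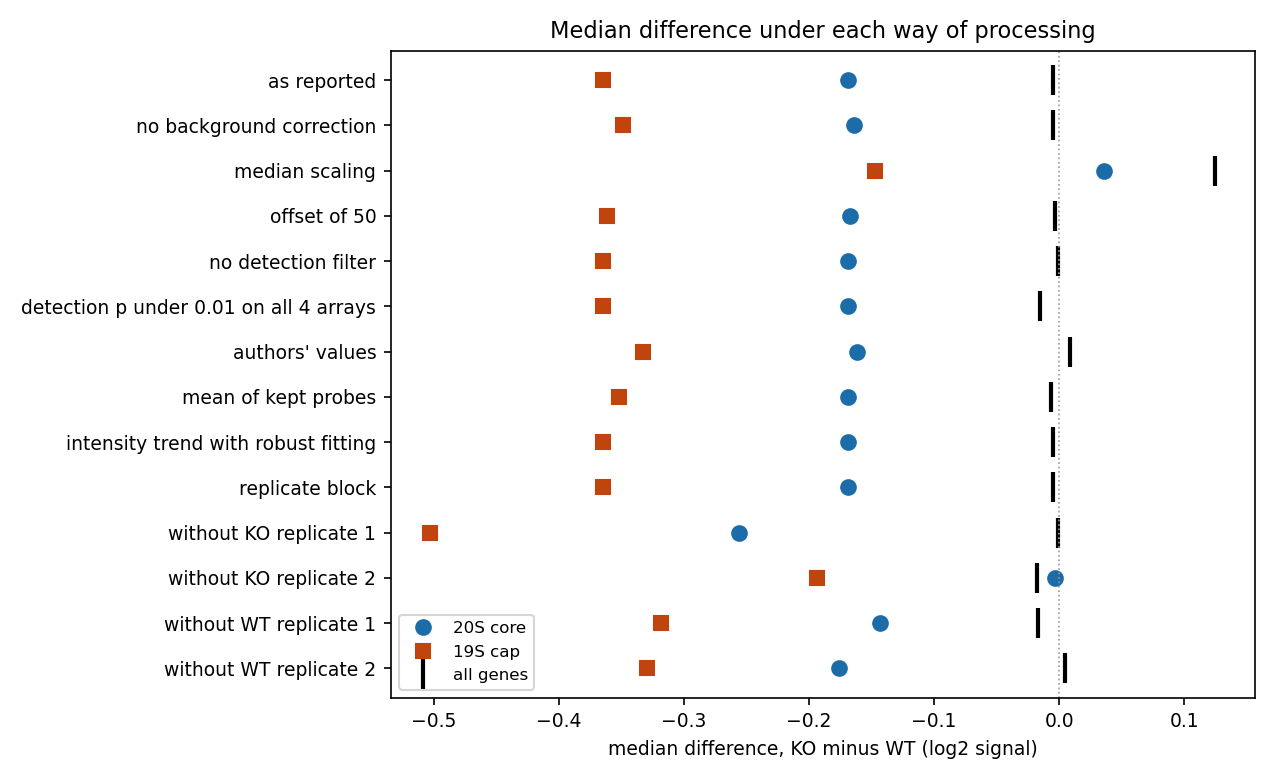
Median difference of the core subunits (circles), the cap subunits (squares) and all genes (vertical ticks) under each way of processing the arrays (horizontal axis, knockout minus wild type, log2 signal). The cap lies left of the core and left of all genes in each of the 14 rows, and the core lies right of all genes without knockout replicate 2. In the rows for the intensity trend, the replicate block and the changed detection filters, the core and cap medians are those of the reported fit.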

How the data were processed

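RNA of 4 samples was hybridised to Illumina bead arrays on 1 chip. The deposited probe table gives a signal intensity for each of 47230 probes, not normalized between arrays, beside a detection p-value, per the file headers. The submitters' processing notes name GenomeStudio, with no version. A second table of log2 values was processed by the authors in a way the sources used here do not describe, and served as an alternative. Here background was corrected by limma's normexp (control statistics inferred from detection p-values, offset 16), followed by quantile normalization and log2 (limma 3.58.1 in R 4.3.3). Probes were named through the platform annotation in GEO, updated through a GRCh38.p14 gene table, and 17148 probes are unnamed here. Probes of different genes bind unequally, so levels are compared only within a gene. Of the 37 members kept, 12 had several kept probes, and in each the probes had the same sign. The dimmer probe of PSMC6 was detected on the wild type arrays alone, at 6.17 and 6.07, against 5.96 and 5.96 on the knockout arrays. It was kept through the group where it is higher, so its sign adds no support for PSMC6. Named pseudogenes, whose transcripts a probe could also read, exist for 21 of the 42 genes.

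Groups were compared with limma (linear model, empirical Bayes, two-sided), and p-values were adjusted by Benjamini-Hochberg over all 11311 genes, with a threshold of 0.05. The limma fit was tested on simulated data with independent noise, of the same spread for each gene and with no array set apart. These arrays differ from that setting, so that test does not check the p-values given here. Full values are given for the catalytic subunits, members at an unadjusted p under 0.05, the extremes of each role group and up to 6 other pathway genes. Members, lists and rules were chosen with earlier results of these data known.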

Additional observations from a re-analysis of the deposited data

How the results depend on the processing

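The cap median stayed below the core median and below the median of all genes under each of the 13 alternatives run. The core median lay above that of all genes without knockout replicate 2. The intensity trend, the replicate block and the changed detection filters left the core and cap medians as they were. Those alternatives therefore could not alter the order of core and cap. Under median scaling the core, cap and assembly medians were 0.036, -0.15 and 0.086. In that setting 1493 genes had an unadjusted p under 0.05 (limma), 11.4% of all genes higher and 1.85% lower. Among the members 0 were higher and 0 lower. At that threshold the members lower numbered 7 with no background correction (10.9% of all genes), 6 with an offset of 50 (10.7%) and with an intensity trend (10.01%), 9 with no detection filter (7.80%), and 4 with the mean of probes (10.6%) and with the replicate block (13.0%). The members higher numbered 2 with no background correction (10.2% of all genes) and with no filter (6.44%), and 0 with detection p under 0.01 on all 4 arrays (10.4%). The members measured were 37, or 38 with no filter. With 1 array left out, genes past the adjusted threshold ran from 0 to 3299, genes at an unadjusted p under 0.05 from 673 to 4662, members past the adjusted threshold from 0 to 7, members lower from 0 to 18, members higher from 0 to 4, the core median from -0.26 to -0.0034, the cap median from -0.50 to -0.19, the assembly median from -0.18 to 0.0030, and core minus cap from 0.15 to 0.25. The count of 3299 came without knockout replicate 1, and 312 came without knockout replicate 2. The cause was not tested.

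Some differences changed sign. Under median scaling they were PSMB5 at 0.12, PSMB7 at 0.11, PSMA5 at 0.17, PSMB4 at 0.036, PSMD9 at 0.097, POMP at 0.074, PSME2 at 0.19 and NFE2L1 at 0.16, and on the authors' values PSMD9 at 0.0072. With 1 array left out, PSMB5 ran from -0.24 to 0.039, PSMB7 from -0.22 to 0.018, PSMC6 from -0.87 to 0.023, PSMC4 from -0.91 to 0.12, PSMD6 from -0.13 to 0.27, PSMA2 from -0.24 to 0.45, PSMA5 from -0.18 to 0.10, PSMD9 from -0.060 to 0.010, PSMG3 from -0.040 to 0.55, POMP from -0.32 to 0.031, PSME2 from -0.15 to 0.11 and NFE2L1 from -0.40 to 0.33. Of 664 values of 49 named genes, 623 kept their direction and their side of the threshold. These values include single kept probes, the brightest probe of a gene among them. Many could not differ in direction, since the intensity trend and the replicate block leave each difference as it was. The changed detection filters also left the differences of the members unchanged. With all 4 arrays, 0% of genes passed the threshold under any setting. The count is therefore not a measure of stability.

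The groups share replicate numbers, and the labels do not say that these pair the samples. Across genes the difference between replicates 2 and 1 correlated at r = 0.44 between knockout and wild type, from 1 pair of differences. Under the replicate block 0 genes passed the adjusted threshold and 2910 had an unadjusted p under 0.05 (limma). Counts of negative members and of members past the adjusted threshold, values relative to the median of all genes, and alternatives for genes that are not members were chosen after seeing the data. Precision is limited by having 2 arrays a group.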
